A study of Mus musculus with 12 samples.

Results

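The regions described here had a BMAL1 peak in both control and senescent fibroblasts, but not in every library. They were defined by the peak calls themselves. Peaks of the 6 BMAL1-ChIP-seq libraries that shared 1 bp or more were joined into regions, and a region was kept when it held a peak in at least 2 of 3 control and at least 2 of 3 senescent libraries but not in all 6. There were 862 such regions among 16818 merged regions (5.13%), and they are called shared regions below. Because the calls chose them, how often a region was called and how well its peaks ranked are descriptions without a test, while DNA motifs, base composition and gene annotation were not used by the rule.

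Primary mouse adult fibroblasts (MAFs) came from the ears of female C57BL6/J mice. Control MAFs were sham irradiated. Senescent MAFs received 20 Gy of X-rays and, by the paper's methods, were then kept in culture for weeks. Both groups were treated with 100 nM dexamethasone, which sets cultured cells to a common circadian phase, and were harvested 12 hours later (n = 3 libraries per group). The series held 12 libraries, of which the 6 input libraries were not analysed here. The labels name one supplier of the BMAL1 antibody and the methods another, nothing states whether replicates were separate cultures or animals, and peak lists hold no expression with which to check the cell type.

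BMAL1 pairs with CLOCK, and the dimer binds the E-box CACGTG at clock genes such as the Period and Cryptochrome genes and at clock output genes such as Dbp, Tef and Hlf. Other basic helix-loop-helix factors, among them MYC, USF and TFEB, bind the same sequence. AP-1, a dimer of JUN, FOS or ATF family proteins that responds to growth factors and stress, binds TGACTCA and its other form TGAGTCA. A ChIP-seq peak marks DNA that came down with the antibody, whether BMAL1 touched that DNA itself or was held there by another protein.

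The best-ranked shared regions with an E-box or an AP-1 motif show the DNA under the peaks. The following stretches were read from the plus strand of GRCm38 (mm10), with 20 bases to each side of the motif, and capitals mark the motif. March8 encodes a membrane-bound ubiquitin ligase, Dlx2 a homeodomain transcription factor and Angptl2 a secreted angiopoietin-like protein, and their regions were called in 2 control and 3 senescent libraries.
March8, chr6:116337973-116338018: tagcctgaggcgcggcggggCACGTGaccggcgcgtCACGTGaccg
Dlx2, chr2:71546771-71546816: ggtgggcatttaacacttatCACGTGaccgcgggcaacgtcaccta
Angptl2, chr2:33180071-33180116: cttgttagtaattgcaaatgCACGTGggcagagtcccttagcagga
Cic encodes the transcriptional repressor Capicua and Cd27 a receptor of the tumour necrosis factor receptor family, and Nrsn2 is the nearest gene of the remaining stretch. These came from regions called in 3 control and 2 senescent libraries.
Cic, chr7:25267563-25267608: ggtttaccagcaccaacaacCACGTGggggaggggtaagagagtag
Nrsn2, chr2:152363702-152363747: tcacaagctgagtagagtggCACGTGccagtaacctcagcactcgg
Cd27, chr6:125255702-125255747: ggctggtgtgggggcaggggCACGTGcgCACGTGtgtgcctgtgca
Rps9 encodes a protein of the small ribosomal subunit, Vamp5 a SNARE protein of membrane fusion and Tob1 an antiproliferative protein, and their regions were called in 2 libraries of each group.
Rps9, chr7:3704617-3704662: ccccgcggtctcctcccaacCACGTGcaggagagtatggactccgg
Vamp5, chr6:72381930-72381975: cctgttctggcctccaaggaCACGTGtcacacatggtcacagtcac
Tob1, chr11:94226264-94226309: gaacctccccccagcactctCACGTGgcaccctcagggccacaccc
The AP-1 motif of the best-ranked AP-1 region of each kind is shown next. Smurf1, a ubiquitin ligase that limits TGF-beta and BMP signalling, was called in 2 control and 3 senescent libraries, Igf2bp3, an RNA-binding protein, in 3 control and 2 senescent libraries, and Ccnb2, cyclin B2, in 2 of each.
Smurf1, chr5:144898650-144898696: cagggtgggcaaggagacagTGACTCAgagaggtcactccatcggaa
Igf2bp3, chr6:49236389-49236435: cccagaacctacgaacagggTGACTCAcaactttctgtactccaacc
Ccnb2, chr9:70318742-70318788: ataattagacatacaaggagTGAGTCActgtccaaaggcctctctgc
At Igf2bp3 the motif lay within 100 bp of the centre of the peak but outside the called region, which began at position 49236429. The reference marked 52.2% of the Vamp5 stretch, 39.1% of the Cd27 stretch and 29.8% of the Igf2bp3 stretch as repeat, and 0% of the others above.

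Most shared regions lacked a peak in a single control library. Of the 862 regions, 457 (53%) were called in 2 control and 3 senescent libraries, 132 (15.3%) in 3 control and 2 senescent libraries, and 273 (31.7%) in 2 of each. Control 1 alone lacked a peak at 257 regions and control 2 alone at 190, against 69 for senescent 1, 53 for senescent 3, and 10 each for control 3 and senescent 2. Of the 15 possible ways in which 1 library, or 1 library of each group, can lack a peak, 14 occurred.

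**Figure D1:**
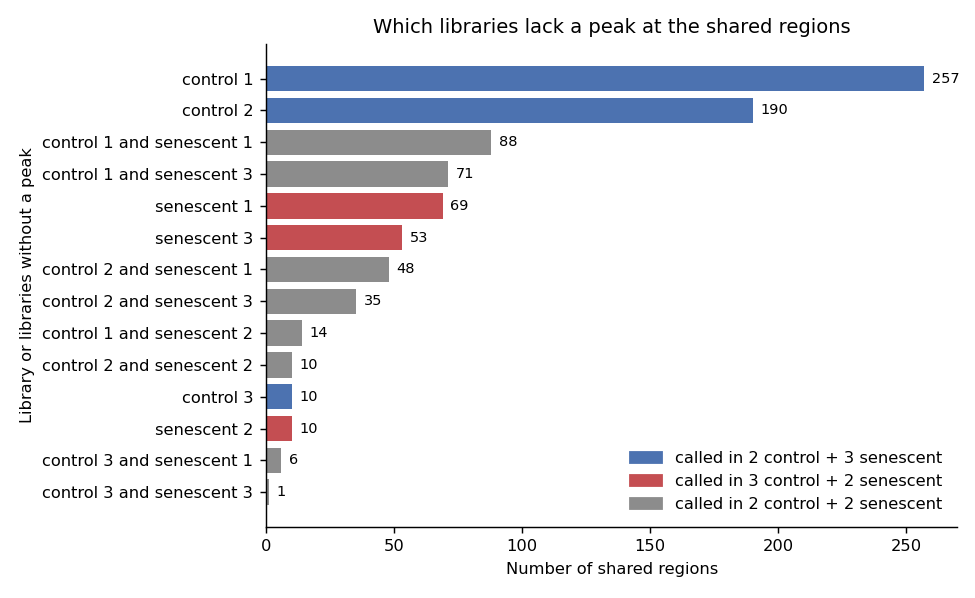
Number of shared regions (horizontal axis) for each library or pair of libraries without a peak (vertical axis), with the bar colour giving the number of libraries of each group that did have one. Control 1 alone (257 regions) and control 2 alone (190 regions) lead.

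Control 1 and 2, with the shortest lists, lacked the most calls. The lists held 2794, 3349 and 10601 peaks in control 1, 2 and 3, and 4220, 9805 and 5053 peaks in senescent 1, 2 and 3. Of 1135 missing calls, 430 (37.9%) fell in control 1, 283 (24.9%) in control 2 and 17 (1.5%) in control 3, while 211 (18.6%) fell in senescent 1, 34 (3.00%) in senescent 2 and 160 (14.1%) in senescent 3. A library without a peak at a shared region had another peak within 1000 bp of it in 102 of the 1135 cases (8.99%), and the median distance to its nearest peak was 65920 bp. The depth behind each list is unknown, and a peak that was not called does not show that BMAL1 was absent. The part that depth or quality of a library had in a missing call was not tested.

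Peaks at shared regions ranked nearer the top in the longest lists, those of control 3 and senescent 2, than in the others. The rank of a peak is its place in its own list by score, best first, given here as a percent of the list. The median was 58.3, 53.2 and 26.0% in control 1, 2 and 3 and 47.3, 26.0 and 43.3% in senescent 1, 2 and 3. At the 1106 regions called in all 6 libraries the same medians were 24.6, 20.3, 6.72, 17.1, 7.67 and 13.9%, nearer the top in each library. Few shared regions stood at the very top, with 1 to 3 of them among the best 100 peaks of a list and 94 to 126 among the best 1000. The shared regions were also narrower, with a median width of 448.5 bp against 671 bp.

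**Figure D2:**
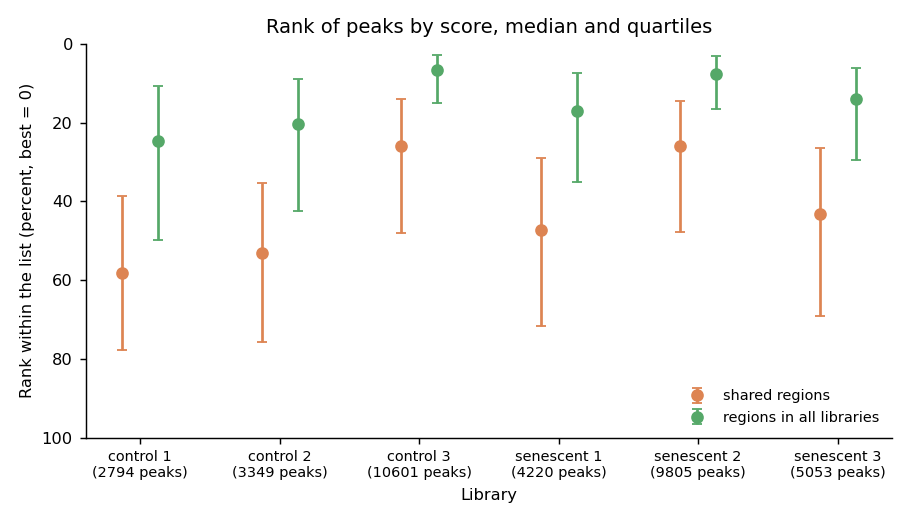
Rank of the peaks within each list in percent (vertical axis, best at the top) for each library, with points for medians and bars from the lower to the upper quartile. In every library the median of shared regions lies below that of regions in all libraries, by 18.3 to 33.7 percentage points.

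Regions close to the threshold of the rule, on either side of it, had mean ranks near the middle of the lists. Just inside it, the median of the mean percent rank was 51.9% for regions called in 2 libraries of each group, 39.8% for 2 control and 3 senescent, and 47.0% for 3 control and 2 senescent. Just outside, it was 42.6% for the 564 regions called in 3 senescent libraries and 1 control library, and 49.0% for the 120 regions called in 3 control libraries and 1 senescent library. Regions called in 2 libraries of either group and 1 of the other were also 1 call short. With these included, the medians outside were 50.6% on the senescent side and 52.3% on the control side, against 44.9% for all shared regions.

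Among shared regions called in 2 control and 3 senescent libraries, the 6 best-ranked all lacked a peak in control 2. Ranks here and below are percents of each list, since the lists differ in length. How many of all 862 shared regions had ranks that did not overlap between groups was not counted. No difference between groups is therefore read from the named regions. Hlf, a PAR bZIP transcription factor whose promoter carries clock output, had its peak 11 bp upstream of the start site (chr11:90390446-90391424). Its peak ranked at 1.79, 1.08 and 1.19% of the list in senescent 1, 2 and 3 but at 27.5% in control 1 and 17% in control 3, so each senescent rank was better than either control rank. No CACGTG lay within 100 bp of the centre of that peak. March8 (chr6:116337590-116338342, 79 bp upstream of the start site) ranked at 23.4 and 4.43% in control 1 and 3 and at 11.5, 2.48 and 3.86% in the senescent libraries, which overlapped. Dlx2 (chr2:71546487-71547196, 58 bp upstream) ranked at 19 and 9.83% against 7.99, 3.63 and 7.58%, each senescent rank being the better. Angptl2 (chr2:33179669-33180519, in an intron and 35895 bp upstream of the assigned start site) ranked at 16.2 and 22.5% against 4.70, 5.17 and 4.55%, each senescent rank again being the better.

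Ldb1 and Smurf1 were distal as well. Ldb1, a cofactor that joins LIM-domain transcription factors, held a region 2553 bp downstream of its start site (chr19:46041885-46042850) with ranks of 24 and 20% in the control and 3.32, 1.32 and 3.97% in the senescent libraries, the latter each better than either control rank. The AP-1 region in an intron of Smurf1 (chr5:144898343-144898987) ranked at 17.1 and 6.16% against 9.69, 4.99 and 13.3%, overlapping between groups. Smurf1 had another shared region, 36264 bp from its start site, with an E-box and a mean rank of 65.6%.

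Among shared regions called in 3 control and 2 senescent libraries, the best-ranked was mitochondrial. It covered chrM:5-6494, which includes mt-Nd1, a subunit of respiratory complex I. It ranked at 0.573, 0.328 and 0.0377% in control 1, 2 and 3, and at 8.41 and 18.2% in senescent 2 and 3, so each control rank was the better, and it had no peak in senescent 1. The region spanned 6490 bp, so its position says little about a site. Tubb4b, a beta-tubulin gene, was called 176 bp upstream of its start site (chr2:25224652-25225069) at ranks of 24.9, 21.6 and 5.84% in the control and 23.8 and 40.5% in the senescent libraries. Cic (chr7:25267347-25268332, 190 bp upstream) ranked at 21.7, 50.5 and 6.53% against 14.8 and 28.8%. The groups overlapped at both.

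The remaining members of this group were distal. Igf2bp3 (chr6:49236429-49236601) ranked at 18.1, 10.7 and 7.03% against 45.4 and 28%, and Sgk2, a serine/threonine kinase gene (chr2:162985792-162986436, 1216 bp upstream), ranked at 10.2, 19.6 and 2.08% against 39 and 51.5%. In both, each control rank was better than either senescent rank. The region nearest to Samd9l (chr6:3201363-3201578) lay 198101 bp from that gene, with ranks of 3.65, 18.5 and 2.31% against 15.2 and 46.5%, which overlapped.

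The best-ranked regions called in 2 libraries of each group went both ways. The region at Spag7 (chr11:70668163-70669456, in an intron 569 bp from the start site) ranked at 17.2 and 6.93% in control 2 and 3 and at 27.3 and 30.6% in senescent 2 and 3, and Eapp, named for a protein that associates with E2F (chr12:54710625-54710802), ranked at 11.5 and 5.64% in control 1 and 3 against 26.3 and 45.3% in senescent 2 and 3. At both, each control rank was better than either senescent rank. Rps9 (chr7:3704421-3704794, 309 bp inside the gene) ranked at 27.5 and 13.8% in control 1 and 3 and at 32.4 and 17.1% in senescent 1 and 2. Lipe, which encodes hormone-sensitive lipase (chr7:25395629-25396336), ranked at 41.3 and 6.92% against 28.7 and 25.2%. At Rps9 and Lipe the groups overlapped. Vamp5 (chr6:72381597-72382092) ranked at 32.2 and 31.6% against 16.9 and 20.2%. Ccnb2 (chr9:70318453-70318955), whose start site lay 102791 bp away, ranked at 53.2 and 22.5% against 6.72 and 20.9%. At these last 2 each senescent rank was the better. These regions were named for their rank, so the ranks describe them and test nothing.

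More shared regions held the canonical E-box than any other of the 17 searched motifs, which were matched on either strand. It lay within 100 bp of the centre of the best-ranked peak in 256 of 862 shared regions (29.7%, 95% Wilson interval 26.7 to 32.8%), against 2.44% of background windows, which were 200 bp long as well and centred 2000 bp up- and downstream. AP-1 motifs lay in 111 regions (12.9%, 10.8 to 15.3%, background 3.65%). Of the 862, 228 held only the E-box, 83 only the AP-1 motif, 28 both and 523 (60.7%) neither. The E-box variant CACGTT was found in 83 regions (9.63%, background 2.44%), while CATGTG (17.4% against 16.3%) and CAGCTG (10.7% against 10.3%) lay near their background. The intervals cover counting error only.

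E-boxes sat close to the centre of the peaks, at a median of 32 bp from it, and AP-1 motifs at 38.5 bp. Of 291 E-boxes in these windows, 47 (16.2%) read CCACGTGC, 45 (15.5%) CCACGTGA and 41 (14.1%) ACACGTGC on one strand or the other. At regions called in all libraries CCACGTGA led with 123 of 603 (20.4%). A further E-box, allowing 1 mismatch, stood 6 or 7 bp from the first in 13 of 256 shared regions with an E-box (5.08%, 2.99 to 8.49%) and in 55 of 493 regions called in all libraries (11.2%, 8.67 to 14.2%). At shared regions these spacings did not stand out, with 8 regions at 6 bp and 5 at 7 bp, while the other spacings of 0 to 20 bp averaged 4.11 regions and reached 11. Only 1 shared region had an exact pair, in an intron of Trim69, a tripartite motif gene, and 41.4% of the stretch shown was marked as repeat in the reference.
Trim69, chr2:122163579-122163636: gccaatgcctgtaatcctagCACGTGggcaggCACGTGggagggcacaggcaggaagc

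**Figure D3:**
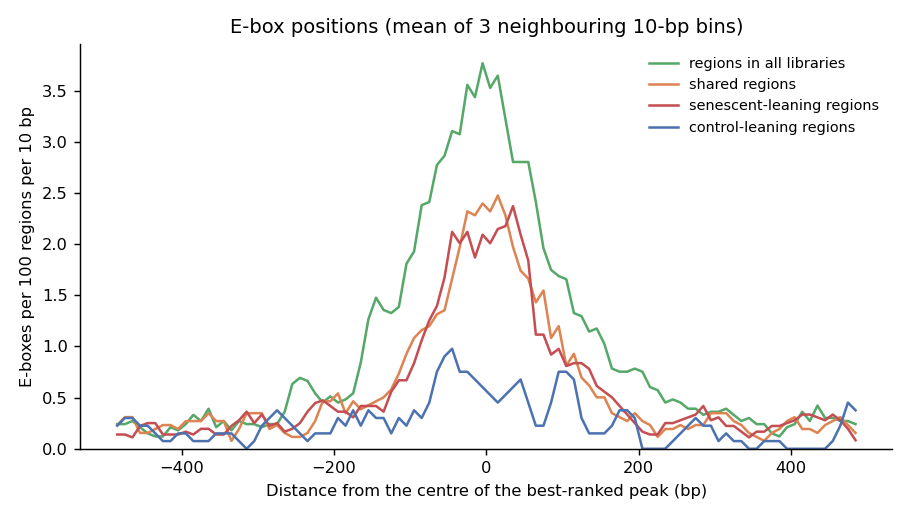
E-boxes per 100 regions per 10 bp (vertical axis, mean of 3 neighbouring bins) against the distance in bp from the centre of each region's best-ranked peak (horizontal axis), with a line for each class of region. The line of shared regions peaks at the centre, below that of regions in all libraries and above that of control-leaning regions.

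In each library the E-box share was lower at shared regions than at regions called in every library, though the difference did not pass correction. The comparison asks whether regions that drop out of 1 or 2 lists carry the same sequence as those that never do. Of the peaks at shared regions, 35.8, 26.0 and 27.2% held an E-box in control 1, 2 and 3 and 36.5, 28.6 and 33.0% in senescent 1, 2 and 3. Of the peaks at regions called in all libraries, 42.1, 40.6 and 39.6% did so in the control and 44.1, 39.4 and 41.9% in the senescent libraries. The share was lower in 6 of 6 libraries, with a difference of -10.1 ± 3.12 percentage points (SD, n = 6, exact two-sided sign-flip permutation test, p = 0.03125, the smallest p that 6 libraries allow). Over the 63 comparisons of this family the adjusted p was 0.0984, so neither this nor any other difference between classes passed the correction. When peaks of like rank were compared, in bands of 20% of a list, the difference was -2.25 points (p = 0.406, same exact test), and with equal numbers of peaks from every list it was -3.61 points (p = 0.0625, exact). It was -16.0 points among promoter peaks alone and -16.5 points with the motif anywhere in the peak (p = 0.03125 for both, same exact test). With 1 library left out, regions lacking only that library counted as called in all libraries. Shared regions lacking another library of its group left the shared class. With the classes so changed, the difference ranged from -19.2 points without control 1 to -2.66 points without senescent 2. This range therefore does not measure the weight of a single library. A rearranged control sequence with the same bases, ACCGGT, also differed, by -0.997 points, and was lower in 6 of 6 libraries.

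The AP-1 share was compared in the same way. The motif was present in 13.7, 12.7 and 12.3% of the peaks at shared regions in control 1, 2 and 3, and in 12.5, 12.1 and 11.0% in senescent 1, 2 and 3. The difference was 2.01 ± 1.04 points, higher in 6 of 6 libraries (exact sign-flip permutation test, p = 0.03125, adjusted p = 0.0984). Among promoter peaks alone it turned to -1.84 points, and with equal list lengths to -0.779 points, so its direction depended on the peaks compared. Without senescent 1 it was 1.33 points. The TEAD motif GGAATG, bound by the partners of YAP, was higher by 4.23 ± 0.553 points in 6 of 6 libraries with the same p.

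Senescent-leaning regions, called in 2 or 3 senescent libraries and exactly 1 control library (1195 regions), were compared with the shared regions next. The E-box share differed by -2.31 ± 4.58 points, higher in 3 and lower in 3 of 6 libraries (exact sign-flip permutation test, p = 0.375), and by -13.2 points without control 1, -6.49 without control 2 and -7.30 without control 3. The AP-1 share differed by -4.64 ± 3.46 points and was lower at shared regions in 6 of 6 libraries (p = 0.03125, adjusted p = 0.0984, same exact test). The difference was -7.90 points among distal peaks and -0.449 points among promoter peaks (exact test, p = 0.656). It was -2.03 points without control 1, -2.67 without control 2 and -0.511 without control 3. Control 1 and 2 had only 58 and 82 peaks at senescent-leaning regions, and control 1 gave the largest AP-1 difference, -10.4 points. Counted over regions, the AP-1 share was 12.9% at shared and 15.2% at senescent-leaning regions. The NF-Y share differed by 0.784 to 11.2 points, with the highest value in control 2, where 82 peaks lay at senescent-leaning regions.

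Control-leaning regions, called in 2 or 3 control libraries and exactly 1 senescent library (443 regions), held fewer E-boxes. An E-box was present in 31.2% ± 4.54 (SD, n = 6 libraries) of the peaks at shared regions and in 13.6% ± 6.05 at control-leaning regions, a difference of 17.6 ± 3.68 points that was positive in 6 of 6 libraries (exact sign-flip permutation test, p = 0.03125, adjusted p = 0.0984). It was 16.4 points within bands of rank, 18.8 points among distal peaks and 14.1 points among promoter peaks, and 8.88 points without control 1 and 8.38 without control 2. Promoter peaks were more frequent by 14.3 ± 6.29 points, a value of 21.9 without control 3, 3.64 without senescent 2 and 7.57 without senescent 3, and GC content was higher by 5.08 ± 1.42 points. The AP-1 share differed by -5.64 ± 3.94 points, or -3.40 without senescent 2 and -2.73 without senescent 3. The share with the RUNX motif (TGTGGTTA or TGTGGTTT), bound by the runt family of transcription factors, differed by -5.73 ± 4.07 points. Both were lower at shared regions in 6 of 6 libraries, but senescent 1 and 3 had only 36 and 66 peaks at control-leaning regions. Senescent 1 gave the largest difference for each, -12.5 points for AP-1 and -13.0 for RUNX. Counted over regions, shared against control-leaning, the shares were 12.9 and 17.2% for AP-1 and 3.71 and 6.32% for RUNX. They were 29.7 and 10.6% for E-boxes and 45.0 and 34.8% for promoters.

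**Figure D4:**
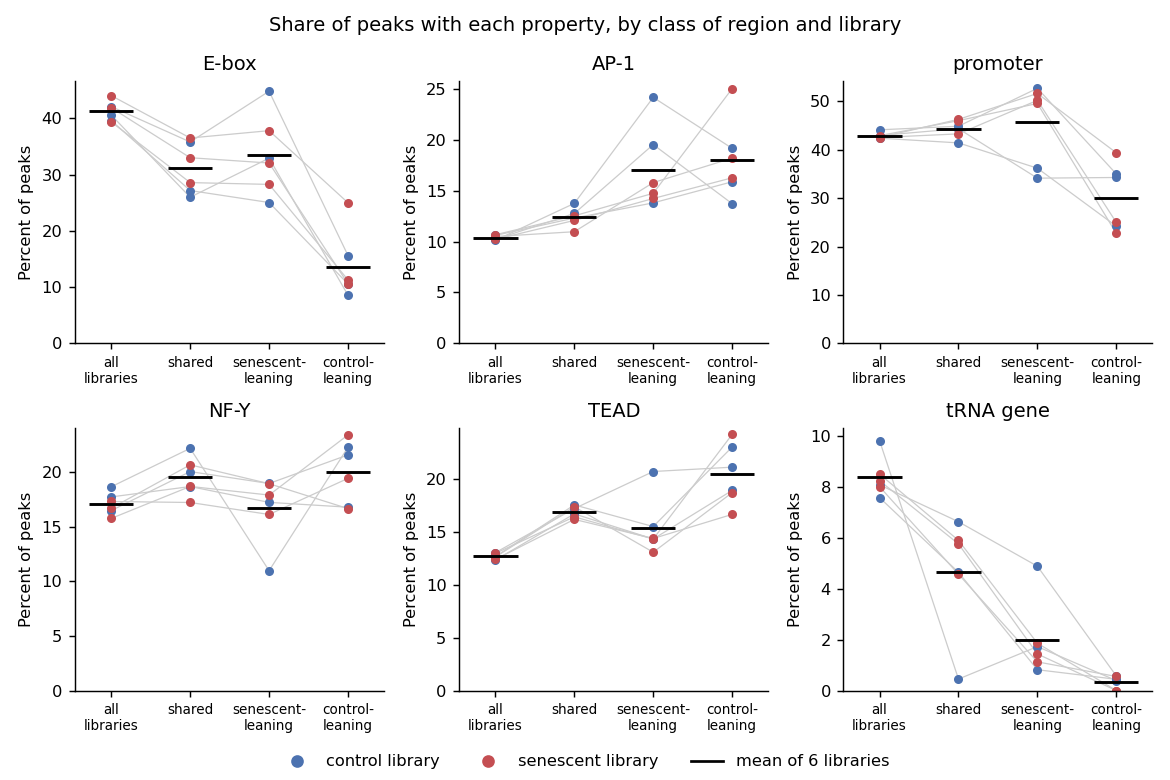
Percent of peaks (vertical axes, from 0) with an E-box, an AP-1 motif, a promoter position, an NF-Y motif, a TEAD motif or a tRNA gene, for 4 classes of region (horizontal axes). Points are libraries, joined by grey lines, and black bars are means of 6 libraries. Shared regions lie between regions in all libraries (41.3%) and control-leaning regions (13.6%) in E-box share, at 31.2%.

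The E-box share also depended on how many libraries called a region. Over all merged regions it was 9.27, 16, 25.7, 30.0, 35.5 and 44.6% for regions called in 1, 2, 3, 4, 5 and 6 libraries. The 589 shared regions called in 5 libraries held it in 35.5% (31.7 to 39.4%) and the 273 called in 4 libraries in 17.2% (13.2 to 22.1%), while the 30.0% of all regions called in 4 libraries pools these with 40.4% of the 564 regions called in 3 senescent libraries and 1 control library and 10% of the 120 called in 3 control libraries and 1 senescent library. The AP-1 motif lay in 11.4% (9.06 to 14.2%) of shared regions called in 5 libraries and 16.1% (12.2 to 20.9%) of those called in 4, with overlapping intervals. Over all merged regions its share was 16.9, 17.1, 18.5, 16.1, 11.4 and 10.3% for regions called in 1, 2, 3, 4, 5 and 6 libraries.

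More shared regions lay at promoters than far from genes. The centre of the best-ranked peak was within 1000 bp of the start site of a protein-coding gene in 388 regions (45.0%, 41.7 to 48.3%), and 123 regions (14.3%) lay over 50000 bp from one. Introns held 276, untranslated exons 72, coding exons 14, and 500 were intergenic. At promoters the median position was 94 bp upstream of the start site. The promoter share differed from that of regions called in all libraries by 1.46 ± 1.72 points (exact sign-flip permutation test, p = 0.125), and by -6.05 points without control 2, -8.90 without control 3 and -0.67 with equal list lengths.

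Promoter and distal members carried different motifs around a like share of E-boxes. The E-box was present in 29.1% of the 388 promoter and 30.2% of the 474 distal regions. AP-1 motifs lay in 3.61% of promoter and 20.5% of distal regions, the TEAD motif in 10.6% and 23.4%, and the RUNX motif in 0.515% and 6.33%. The promoter motifs went the opposite way. The NF-Y motif, CCAAT followed by C or G and then A or G, bound by a trimeric factor, was present in 34.8% of promoter regions (30.2 to 39.7%) and 9.92% of distal ones. The SP/KLF motif GGGGCGGG, a GC box, was present in 23.5% and 4.85%. Of the 523 regions with neither E-box nor AP-1 motif, 262 were at promoters, and 142 of those had an NF-Y or SP/KLF motif. Their backgrounds were 5.97% for NF-Y, 1.68% for SP/KLF, 8.99% for TEAD and 1.68% for RUNX, over the flanks of all shared regions. Across all shared regions the cyclic AMP response element TGACGTCA was found in 2.20% (background 0.174%), the ETS motif CCGGAAGT in 1.74% (0.0580%) and the D-box TTATGTAA, bound by HLF and its relatives, in 1.04% (0.812%). The consensus pattern of the glucocorticoid receptor was found in 3 regions (0.348%, background 0.348%), that of NFI in 1 (0.116%, 0%) and that of CTCF in 12 (1.39%, 1.57%). The rearranged controls of the E-box (0.812%, 1.10%) and of AP-1, ATGCCAT or ATGGCAT (1.39%, 1.62%), lay at or below their background.

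Within the shared regions the E-box and AP-1 shares of control and senescent libraries overlapped, while GC content and the CpG ratio did not. E-boxes lay in 29.7% ± 5.36 of control peaks and 32.7% ± 3.98 of senescent peaks (SD, n = 3 libraries each, exact two-sided permutation test, p = 0.5), and the AP-1 share was 12.9% ± 0.737 against 11.8% ± 0.802 (p = 0.2, same exact test). With 3 against 3 libraries the smallest possible p is 0.1. It was reached for GC content, 54.0% ± 0.684 against 55.6% ± 0.243, and for the ratio of observed to expected CpG, 0.553 ± 0.0210 against 0.581 ± 0.00274, with an adjusted p of 0.969 over 21 properties.

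Regions that lacked a peak in just 1 library formed 6 sets that share no region. An E-box was present in 75 of 257 regions lacking control 1 (29.2%, 24 to 35%), in 94 of 190 lacking control 2 (49.5%, 42.4 to 56.5%) and in 7 of 10 lacking control 3. It was present in 12 of 69 lacking senescent 1 (17.4%, 10.2 to 28%), 6 of 10 lacking senescent 2 and 15 of 53 lacking senescent 3 (28.3%, 18 to 41.6%). The mean over sets lacking a control library exceeded that over sets lacking a senescent library by 14.3 points (n = 3 sets each, exact permutation test, p = 0.4), with an SD of 20.4 points among the former and 22.1 points among the latter. The sets lacking control 3 and senescent 2 held only 10 regions each, and without them the difference was 16.5 points. With the rule unchanged and the set of 1 library left out of the comparison, the difference was 4.10 points without control 3 and 5.40 without senescent 1. It was 24.5 points without control 1 and 26.7 without senescent 2. The AP-1 share differed by -1.34 points (p = 0.4, exact) and the promoter share by 13.7 points (p = 0.5, exact). With 1 set left out in the same way, the promoter difference was 1.99 points without senescent 2, 22.3 without control 3 and 23 without senescent 1. GC content was 57.3% ± 1.52 in sets lacking a control library and 50.1% ± 1.82 in sets lacking a senescent library (n = 3 each, exact permutation test, p = 0.1, adjusted p = 0.7), and these sets did not overlap.

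**Figure D5:**
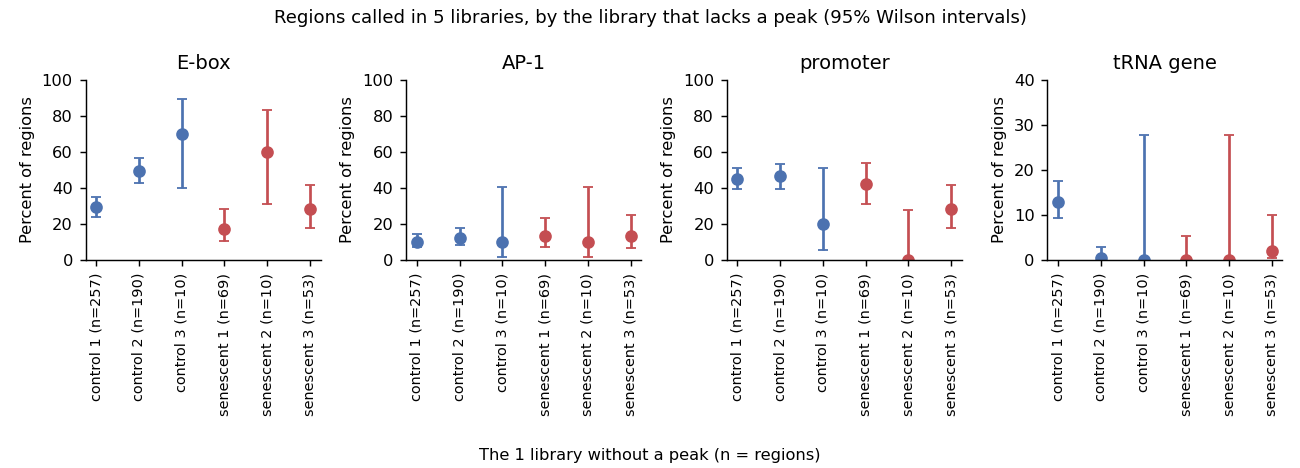
Percent of regions with an E-box, an AP-1 motif, a promoter position or a tRNA gene (vertical axes) in the 6 sets of shared regions that lacked a peak in 1 library only (horizontal axes, n = regions in the set). Bars are 95% Wilson intervals, blue for control and red for senescent. The set lacking control 2 holds an E-box in 49.5% of regions, and the set lacking control 1 a tRNA gene in 12.8%.

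Transfer RNA genes, which RNA polymerase III transcribes, marked a group of shared regions that control 1 lacked. This property was looked at after the data had been seen. A nuclear tRNA gene lay within 100 bp of the centre of the best-ranked peak in 41 shared regions (4.76%, 3.53 to 6.39%), against 87 of 1106 regions called in all libraries (7.87%, 6.42 to 9.60%). The 41 regions covered 41 of the 403 annotated nuclear tRNA genes, for 16 amino acids, led by 5 for arginine. Of the 41, 33 lacked a peak in control 1 alone and 39 lacked it in control 1 alone or with another library. Regions called in all libraries have a control 1 peak by definition, so they cannot show such a gap. There tRNA genes took 9.81% of control 1 peaks, and 7.57 to 8.49% in each other library.

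Only 2 of the 41 tRNA regions held an E-box and 1 an AP-1 motif. Of the 41, 22 lay between positions 21172141 and 23526738 of chromosome 13, in a stretch that also holds histone genes and 27 shared regions in all. The best-ranked of the 41 was near Exosc6 (chr8:111062347-111062780), with ranks of 10.9 and 10.7% in control 2 and 3 and 17, 13.7 and 16.8% in the senescent libraries. In the peaks of control 1 at shared regions the tRNA share was 0.450%, against 4.57 to 6.62% in the other 5 libraries. With 5 libraries, both remaining libraries of the reduced group had to call a region. Regions lacking only the library left out counted as called in all libraries, as did 33 of the 41 without control 1. Those lacking another library of its group left the shared class. The shares without a library are thus set in part by the rule. Without control 1 the rule then gave 305 regions, of which 2.30% lay at a tRNA gene, and the share was 0.444% without control 2 and 0.714% without control 3 but 7.42% without senescent 2. It was 10.3% of the shared regions drawn from the better-scoring peaks of each list and 8.99% with equal list lengths. Why control 1 lacked these peaks was not tested. Leaving out the tRNA regions moved the E-box share to 30.9%.

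The shared regions had 786 genes as nearest protein-coding start site, which is 3.6% of the 21840 genes with one. Of these, 111 were also nearest to a region called in all libraries, which is 14.1% of the former and 11.3% of the 985 genes of the latter. A region called in all libraries lay within 50000 bp of 202 shared regions (23.4%, 20.7 to 26.4%), and 63 genes had at least 2 shared regions. The lists below are read against the 3.6% and were not tested, and nearness to a start site does not show that a gene is regulated.

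Of 23 clock loop genes 1 (4.35%, beside 3.6% of all genes) had shared regions. It was Cry2, a repressor of the CLOCK and BMAL1 dimer, with 2 regions in introns, and 11 of the 23 had a region called in all libraries. The region 2706 bp from the Cry2 start site (chr2:92431107-92431645) ranked at 50.4 and 45.5% in control 1 and 3 and at 50.1, 18.3 and 42% in the senescent libraries. The other, 7513 bp from it (chr2:92426275-92426770), ranked at 94.5, 25.3 and 20.6% in the control libraries and at 97.4 and 85.2% in senescent 1 and 3. The groups overlapped at both. Neither held CACGTG within 100 bp of the centre. Of the 4 PAR bZIP genes, Hlf had a shared region and 3 had a region called in all libraries, Hlf being among them.

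Kruppel-like factors, zinc-finger proteins that bind GC-rich promoters, had the highest share among the 17 lists. Of 17 genes, 7 (41.2%) had a shared region, namely Klf3, Klf4, Klf6, Klf7, Klf9, Klf13 and Klf14, and 7 had a region called in all libraries, 3 of them in common. Klf4, a pluripotency and differentiation factor, was called 150 bp upstream of its start site with an E-box (chr4:55532500-55533095), at ranks of 30.7 and 36.4% in control 2 and 3 and 30.9, 22.3 and 16.2% in the senescent libraries. Klf9, which glucocorticoids induce, had a region 6133 bp upstream with an AP-1 motif (chr19:23134763-23135230), at ranks of 50.1 and 91.9% in control 2 and 3 and 88.9 and 25.2% in senescent 1 and 2. Klf6 had a region at its promoter and another 10263 bp downstream of its start site. Of the 16 glucocorticoid-induced genes, Klf9, Mt1 and Errfi1 had a shared region, and 5 had a region called in all libraries. Mt1, a metallothionein that binds metals, was called 41 bp inside the gene (chr8:94178908-94179505) at ranks of 56.9 and 8.74% in control 2 and 3 and 40.6, 9.30 and 15.9% in the senescent libraries, without an E-box or AP-1 motif.

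Genes of cell cycle arrest and the p53 pathway followed, with 7 of 22 (31.8%). They were Cdkn1b and Cdkn2b, which inhibit cyclin-dependent kinases, Gadd45g and the sestrins Sesn1 and Sesn2 of the stress response, Bbc3, which encodes the pro-apoptotic PUMA, and Phlda3, an inhibitor of AKT. Phlda3 had an E-box 13272 bp downstream of its start site (chr1:135779210-135779556), with ranks of 96.6 and 24.8% in control 1 and 3 and 19.1, 28 and 62% in the senescent libraries. The region nearest Cdkn2b held an AP-1 motif but lay 167977 bp from it. Only Sesn1 was called within 1000 bp of a start site, at 765 bp, with ranks of 53.2 and 52.3% in control 2 and 3 and 82.3, 26.8 and 97.8% in the senescent libraries. Of the 15 BCL-2 family genes, Bmf, a BH3-only protein, was called 95 bp upstream of its start site, and Bbc3 was the other. None of 35 secreted senescence factors had a shared region (0 of 35), nor any of 16 NAD salvage and sirtuin genes (0 of 16) or of 16 MAPK phosphatase and Sprouty genes (0 of 16). Lists this short can hold none at the 3.6% of all genes. A region called in all libraries was nearest to 4 of the secreted factors, 5 of the NAD salvage and sirtuin genes and 1 of the MAPK phosphatase and Sprouty genes. The same held for 5 of the 22 arrest and p53 genes (22.7%) and 4 of the 15 BCL-2 family genes (26.7%).

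The TEAD and YAP pathway had 5 of 20 genes (25%), and 6 of the 20 (30%) had a region called in all libraries. Stk4, which encodes the Hippo kinase MST1, was called 61 bp upstream of its start site with an E-box (chr2:164073915-164074160), at ranks of 49.4 and 90.4% in control 1 and 3 and 61.7, 11.1 and 71% in the senescent libraries. Tead1, a TEAD transcription factor, held an AP-1 motif in an intron (chr7:112696901-112697358), at ranks of 83.8 and 11.8% against 36.8, 21.9 and 8.77%. Nf2, whose product merlin acts upstream of the pathway, was called 140 bp upstream of its start site, and Amotl2 and Lats2, a scaffold and a kinase of the pathway, at distal regions without either motif. Of 18 AP-1 subunit genes, Jund was called 64 bp upstream of its start site and Fosl2 in an intron, again without either motif. A region called in all libraries was nearest to 4 of the 18. In the TGF-beta and BMP pathway, 3 of 43 genes (6.98%) had a shared region, and 8 (18.6%) had one called in all libraries. Id2, an inhibitor of helix-loop-helix factors, had an E-box 261 bp upstream, Tgif1, a repressor of SMAD targets, an AP-1 motif 120826 bp away, and Smurf1 both of its regions.

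Lysosomal genes had 5 of 51 (9.80%), of which 4 were called at their promoters. A region called in all libraries was nearest to 6 of the 51 (11.8%). Hexa, a subunit of beta-hexosaminidase, held E-boxes 217 bp inside the gene (chr9:59539373-59540145), with ranks of 37.2 and 23.3% in control 1 and 3 and 22.2, 5.35 and 15% in the senescent libraries, each better than either control rank. Ctsd, the protease cathepsin D, held E-boxes with the centre 84 bp upstream (chr7:142387324-142388193), at ranks of 34.6 and 11.8% against 38, 27.5 and 21.6%, which overlapped. Neu1, a sialidase, held CACGTT 47 bp upstream, Gaa, acid alpha-glucosidase, was called 44 bp inside the gene, and Atp6v1c1, a subunit of the proton pump, had an E-box 59476 bp away. Of 34 autophagy genes only Uvrag had a shared region, 133948 bp from its start site.

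Ribosomal protein genes had 7 of 91 (7.69%), and 6 of the 7 were called within 1000 bp of a start site. A region called in all libraries was nearest to 5 of the 91 (5.5%). Rps9, Rps28, Rpl19 and Rpl10 had an E-box. Rpl19 (chr11:98026484-98026901, 76 bp upstream) ranked at 93.9 and 64.1% in control 2 and 3 and at 38 and 11.7% in senescent 1 and 2. Rps28 (chr17:33824361-33824695, 34 bp inside the gene) ranked at 99.4 and 69.2% against 72.8 and 14.5%. Rpl3 and Rpl41 were called at promoters without an E-box. Rps24 was assigned a region 302992 bp away. These 7 genes were each called in 2 libraries of each group. Among the collagens, Col18a1 and Col6a3, chains of basement membrane and microfibrillar collagen, had distal E-box regions, and of 36 cyclin, CDK and replication genes, Ccnb2 and Wee1, a kinase that holds back entry into mitosis, had distal regions.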

How the data were processed

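BMAL1-ChIP-seq peak lists of 3 control and 3 senescent libraries were analysed. The authors mapped paired reads to mm10 with BWA, removed duplicates with Picard and called peaks with MACS2 in each library separately at an FDR of 1%. The MACS2 version, and whether the input served as its control, are not given in the sources used here. The deposited score of each peak was taken as the −log10 of its q-value, since the smallest values were 2.02 to 2.12. It is not normalized between libraries and only ranked peaks within a list, with tied scores sharing a mean rank. The lists give no reads, so depth is unknown.

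Peaks were merged and annotated in Python 3.11.15 (pandas 2.3.3, pysam 0.24.0, samtools 1.23.1, SciPy 1.17.1) with GENCODE M21 start sites of protein-coding genes and RefSeq tRNA genes of GRCm38. All 17 motifs were matched exactly on either strand, within 100 bp of peak centres, because summits are not listed. Shares of peaks were compared within libraries by exact sign-flip permutation, and between groups by exact permutation, with Benjamini-Hochberg adjustment. Libraries share regions, so these p-values describe the libraries, and replicates may be technical. Scripts were tested on simulated data.

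Named are the 6 best-ranked regions of each pattern of calls, the genes of 17 lists nearest to a shared region (those with an E-box or AP-1 motif first, at most 6 a list in detail), the 3 best-ranked E-box and 1 best-ranked AP-1 sequences of each pattern, and exact E-box pairs. Members and lists were chosen with earlier results of these data known. Alternatives were score and list-length limits, a stricter overlap, fewer chromosomes, each library left out, other motif windows, subtraction of background, promoter or distal peaks, bands of rank, a wider promoter and a replicate block.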

Additional observations from a re-analysis of the deposited data

How the results depend on the processing

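Depth is unknown. Keeping only the better-scoring peaks of each list, above its median, gave 435 shared regions, equal numbers of best-scoring peaks 467, and leaving out a library 140 to 597. These held 158 (18.3%), 222 (25.8%) and 137 to 595 (15.9 to 69.0%) of the 862. Requiring 50% of the shorter peak to be covered kept 97.1% of the shared regions. The E-box share was 39.77% above the median score, 39.4% with equal lists, 19.26% within 50 bp of the centre, 38.17% anywhere in the peak and 19.02 to 38.97% with a library left out. The AP-1 share was 9.195, 8.779, 7.541 and 18.21% under the same 4 limits, and 9.223% after subtraction of the background. The promoter share was 53.02% at a distance of 3000 bp and 34.29 to 47.57% with a library left out.

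The following differences are in percentage points, and with 5 libraries the smallest p, 0.0625, cannot pass 0.05. Equal lists gave -3.605 for E-boxes against regions in all libraries, -0.7786 for AP-1 and -0.67 for promoters, the last 2 reversed, and for promoters -4.32 against senescent-leaning and 7.939 against control-leaning regions. Peaks above the median score gave 1.342 for AP-1 and 4.073 for promoters against regions in all libraries and -4.005 for AP-1 against control-leaning regions. Motifs within 50 bp gave -2.293 for AP-1 against control-leaning regions and a reversed 0.2687 between the sets lacking 1 library. Motifs anywhere in the peak gave for AP-1 a reversed -1.094 against regions in all libraries, -3.461 against senescent-leaning and -4.018 against control-leaning regions and a reversed 5.029 between the sets, and for E-boxes a reversed 1.022 against senescent-leaning regions. Promoter peaks alone gave for AP-1 a reversed -1.835, then -0.4489 and -2.673 in the same order of comparisons, and 14.1 for E-boxes against control-leaning regions. Distal peaks alone gave -5.641 for E-boxes against regions in all libraries and -3.173 for AP-1 against control-leaning regions. Bands of rank gave -2.25 for E-boxes against regions in all libraries. The cause of these shifts was not tested.

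With a library left out, all classes were formed anew from the other 5. Regions lacking only that library then counted as called in all libraries, and shared regions lacking another library of its group left the shared class. E-boxes then ranged from -19.17 to -2.664 against regions in all libraries, -13.23 to -1.276 against senescent-leaning and 8.375 to 21.61 against control-leaning regions. AP-1 ranged from 1.33 to 2.837 against regions in all libraries, -4.947 to -0.5105 against senescent-leaning and -6.741 to -2.726 against control-leaning regions. Promoters ranged from -8.896 to 4.409, from -11.38 to 2.238 and from 3.638 to 21.89 in that order. They were reversed against regions in all libraries without control 2 or 3, and against senescent-leaning regions whichever senescent library was left out. For tRNA genes, peaks above the median score reversed the difference from regions in all libraries to 0.5526 and that between the sets to -5.204. Leaving out a library gave -4.628 to 3.464 against senescent-leaning regions. Between the sets, leaving out the set of 1 library, with the rule unchanged, gave -0.3658 to 6.054.

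Same-numbered control and senescent libraries had correlations of their calls of -0.122, 0.142 and 0.113, so the numbers were not taken to pair them. With the replicate block the difference between the sets lacking 1 library was 14.32 for E-boxes, -1.343 for AP-1 and 13.71 for promoters, with exact p of 0.5, 0.5 and 0.75. Leaving out tRNA regions, or sets under 20 regions, was chosen after seeing the data.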
